A study of Homo sapiens with 12 samples.

Results

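The genes described here are the WNT ligands, the R-spondins that amplify WNT signalling, and the Frizzled receptors and co-receptors that bind them. Members were chosen by gene symbol (WNT or FZD with a number, LRP5, LRP6, ROR1, ROR2, RYK and RSPO1 to RSPO4), and a gene was kept where a probe set carried its symbol alone. That gave 35 of the 19775 genes measured: 17 WNT ligands, 4 R-spondins, 9 Frizzled receptors and 5 co-receptors. Of the 38 genes with such symbols in the human reference, FZD8, WNT3 and WNT3A had no probe set of this kind and are not analysed here. Where a gene had several probe sets, the one with the highest mean log2 value over all arrays represents it.

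The cells were H9, a widely used human embryonic stem cell line, at passages 28 to 35. Their RNA was read on 12 Affymetrix arrays in 4 groups of 3. All groups carried a Tet-on construct that makes GCNF when doxycycline (Dox) is added. GCNF is the product of NR6A1, a nuclear receptor without a known ligand that represses pluripotency genes. One group was left undifferentiated and untreated (d0). Another stayed undifferentiated under 1 µg/ml Dox lasting 4 days (d0 with Dox). Both day 6 groups grew for 6 days in medium with 15% serum, to which either 1 µM retinoic acid (RA) or 1 µg/ml Dox was added. The day 0 groups had 0% serum, and no day 6 group without RA or Dox was analysed here. Between day 6 and day 0, effects of serum, time and treatment therefore cannot be told apart. Titles call the arrays of each group biological replicates. Whether the line was 1 clone, and what made these replicates separate, is not stated in the labels. The p-values therefore reflect array-to-array spread, part of which may be technical. Cells lacking the construct under Dox were not analysed here, and effects of the drug and of GCNF cannot be told apart.

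The NR6A1 signal followed the labels at d0, where all 7 of its probe sets were higher with Dox. At day 6 the labels and the data disagreed in part: of the 7, 4 were lower in the arrays labelled Dox and 3 were higher. The probe set brightest at d0 had means of 528 under the RA label and 1009 under the Dox label. Another had means of 26.8 at d0, 615 with Dox, 336 under the RA label and 29.2 under the Dox label. CYP26A1, an enzyme that degrades retinoic acid and is induced by it, read 4494 ± 252 (SD, n = 3) at d0. It read 271 ± 37 in arrays labelled RA and 29594 ± 1005 in arrays labelled Dox. For that reason the text speaks of RA-labelled and Dox-labelled arrays at day 6, and each direction between them rests on those labels. All 9 measured markers of pluripotent cells had group means above 64 at d0 and at d0 with Dox, and their summed intensity was 113924 to 123770.3 and 102162 to 106953. The sum dropped to 20104 to 22171 under the RA label and to 19329.7 to 20286 under the Dox label. Single markers differed in direction. At d0 the means of NANOG (11672 to 5468), PRDM14, ZFP42, DPPA4, DNMT3B and L1TD1 were lower with Dox. Those of SOX2, LIN28A and SALL4 were higher. Dox-labelled arrays had lower means than RA-labelled ones for NANOG (36.7 against 639.8), PRDM14, ZFP42, DPPA4, DNMT3B and SOX2. Their means were higher for LIN28A (9447 against 7091), L1TD1 and SALL4. Array medians ran from 64.2 to 78, and precision is limited by the small number of arrays.

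WNT proteins are secreted, lipid-modified glycoproteins. They bind Frizzled receptors, which cross the membrane repeatedly, together with LRP5 or LRP6, and this stabilises beta-catenin, which switches on genes with TCF/LEF factors. ROR1, ROR2 and RYK are alternative WNT receptors, best known for WNT5A signals that act on cell polarity and movement without beta-catenin. R-spondins bind LGR receptors and protect Frizzleds from the ubiquitin ligases ZNRF3 and RNF43. In pluripotent cells this pathway is known both for influencing self-renewal and for starting the primitive streak.

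Intensities are on the deposited linear scale. Log2 fold changes are differences of mean log2(intensity + 16) with their standard error (SE), and a gene is said to rise or fall where limma's adjusted p over all 19775 genes was under 0.05. A group mean under 64, close to the median of an array, is called dim. Intensities of different genes come from different probes and are not compared with each other.

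Across the 4 groups the Frizzleds and co-receptors were mostly highest in undifferentiated cells and the ligands were mostly highest at day 6. Among the 26 members that were not dim in every group, 10 had their highest mean at d0 with Dox (FZD1, FZD3, FZD7, FZD9, FZD10, LRP6, ROR1, ROR2, RYK and WNT16). Another 8 were highest in the Dox-labelled arrays (FZD4, RSPO3, RSPO4, WNT2, WNT2B, WNT4, WNT5A and WNT6), 5 in the RA-labelled arrays (FZD2, FZD6, WNT5B, WNT9A and WNT10B) and 3 at d0 (FZD5, LRP5 and WNT8A). These ranks are of means alone, and for FZD9, LRP5, RSPO4, WNT6 and WNT16 the representative probe set passed in none of the 4 comparisons. The other 9 members were dim in every group: WNT1, WNT7A, WNT7B, WNT8B, WNT9B, WNT10A, WNT11, RSPO1 and RSPO2.

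**Figure D1:**
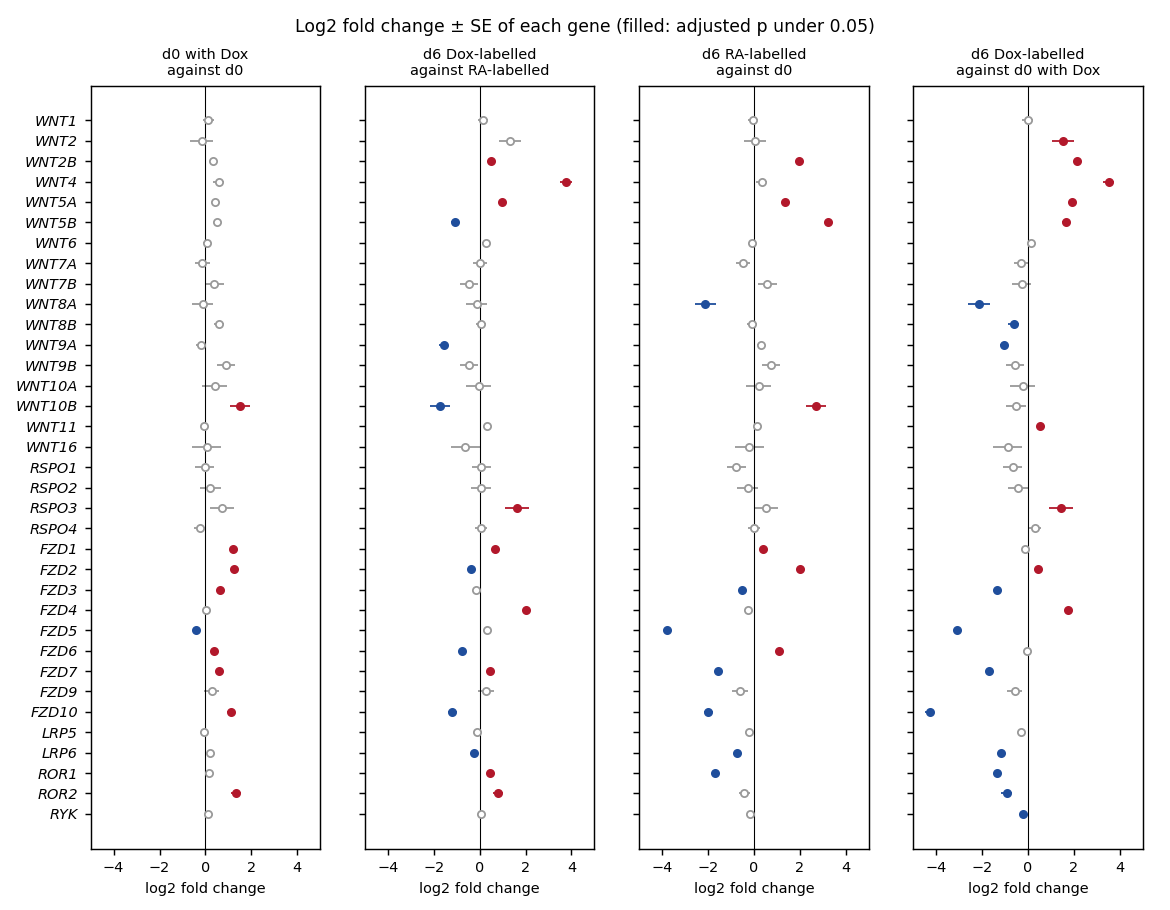
Log2 fold change (horizontal axis) with its SE (horizontal line) for each of the 35 genes (rows) in the 4 comparisons (panels), n = 3 arrays a group; filled red points rose, filled blue points fell and open points did not pass. In the leftmost panel 8 filled points lie to the right and 1 to the left, while the panels that set day 6 beside day 0 hold filled points on both sides, from -4.28 for FZD10 to 3.51 for WNT4.

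Promoter sequence was available for 25 of the 35 members from RefSeq (build GRCh38.p14). The entries for FZD2, FZD3, FZD6, FZD7, FZD10, LRP6, RSPO2, WNT7B, WNT10B and WNT11 were missing. The 250 bases before the start of 4 genes are shown, because FZD1 and ROR2 rose with Dox at d0, and FZD4 and WNT4 were each far higher in the Dox-labelled arrays than in the other 3 groups. Capitals mark CG dinucleotides, of which FZD1 had 19 (chr7:91264183-91264432, plus strand), ROR2 32 (chr9:91950229-91950478, minus strand), FZD4 33 (chr11:86955396-86955645, minus strand) and WNT4 40 (chr1:22143098-22143347, minus strand).
FZD1: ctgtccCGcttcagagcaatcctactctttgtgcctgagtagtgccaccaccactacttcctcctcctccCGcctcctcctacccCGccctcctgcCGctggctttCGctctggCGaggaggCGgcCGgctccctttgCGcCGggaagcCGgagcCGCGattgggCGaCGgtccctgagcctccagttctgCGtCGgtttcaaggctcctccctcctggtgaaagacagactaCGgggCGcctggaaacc
ROR2: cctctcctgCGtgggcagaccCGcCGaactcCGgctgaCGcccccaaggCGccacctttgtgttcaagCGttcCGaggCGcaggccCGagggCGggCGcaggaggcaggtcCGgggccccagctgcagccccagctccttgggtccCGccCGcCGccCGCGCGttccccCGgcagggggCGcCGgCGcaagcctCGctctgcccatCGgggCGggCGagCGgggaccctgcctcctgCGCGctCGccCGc
FZD4: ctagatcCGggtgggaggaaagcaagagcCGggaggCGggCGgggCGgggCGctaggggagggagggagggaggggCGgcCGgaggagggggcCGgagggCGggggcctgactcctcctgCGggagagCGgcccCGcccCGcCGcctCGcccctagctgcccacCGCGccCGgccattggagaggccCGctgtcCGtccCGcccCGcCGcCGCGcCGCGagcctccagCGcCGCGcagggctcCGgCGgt
WNT4: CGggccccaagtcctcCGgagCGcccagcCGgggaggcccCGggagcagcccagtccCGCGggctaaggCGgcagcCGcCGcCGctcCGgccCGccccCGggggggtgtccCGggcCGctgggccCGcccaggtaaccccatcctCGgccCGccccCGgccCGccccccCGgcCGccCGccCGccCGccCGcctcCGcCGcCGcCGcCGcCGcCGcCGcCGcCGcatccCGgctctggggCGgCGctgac

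CG dinucleotides were frequent in these windows. The median over the 25 members was 29, with a range of 3 in WNT8B to 44 in WNT9A, against 11 over the 27305 promoter windows of all kinds of gene in the table. The GCNF site is known as a direct repeat of AGGTCA with no base between the copies. That repeat was found on either strand in 0 of 25 member windows and in 0.0146% of all windows, and the shorter form TCAAGGTCA, which it contains, in 0 of 25 and 0.319%. A lone AGGTCA, which also lies inside both longer forms, was found in 1 member, WNT16, and in 12.1% of all windows. The retinoic acid response element, AGGTCA repeated with 5 bases between the copies, was found in 0 members and 0.00366% of all windows, and the TCF/LEF motif CTTTGAT in 0 members and 2.28% of all windows. These counts say only which letters stand in the 250 bases before each start.

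In undifferentiated cells Dox raised most Frizzleds. FZD1, FZD2, FZD3, FZD6, FZD7 and FZD10 rose and FZD5 fell, so that 7 of 9 Frizzleds were called, and ROR2 was the co-receptor that rose. Of 17 ligands WNT10B rose, at a low signal and in a call lost under 17 of the alternatives run. WNT2B, WNT4, WNT5A and WNT5B did not pass, but did under some alternatives. Of the 4 R-spondins limma called 0, and 0 had an unadjusted p under 0.05. In all 8 members rose and 1 fell out of 35, where 7.75% of all genes rose and 5.16% fell (12.9% called). That background includes dim genes. Tested among genes at or above the median mean alone, 3253 of 9888 were called, a larger share. All 9 called members are among the 26 not dim in every group (34.6%). The median log2 fold change was 0.58 over the Frizzleds, 0.27 over the members and 0.03 over all genes. At 2-fold or more 5 members rose (FZD1, FZD2, FZD10, ROR2 and WNT10B), against 1.14% of all genes, and 0 fell that far, against 0.703%.

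Between the day 6 groups the members went both ways. FZD1, FZD4, FZD7, ROR1, ROR2, RSPO3, WNT2B, WNT4 and WNT5A were higher in the Dox-labelled arrays, and FZD2, FZD6, FZD10, LRP6, WNT5B, WNT9A and WNT10B were lower. These 9 and 7 of 35 stand beside 13.7% higher and 12.2% lower over all genes (25.9% called). That background includes dim genes, while all 16 called members are among the 26 not dim in every group (61.5%). Tested among genes at or above the median mean alone, 4932 of 9888 genes were called. The median over the members was 0.06, against 0.00 over all genes. At 2-fold or more 3 were higher (FZD4, RSPO3 and WNT4) and 4 lower (FZD10, WNT5B, WNT9A and WNT10B), against 3.86% and 1.92% of all genes.

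From d0 to the RA-labelled day 6 arrays 7 members rose and 7 fell, where 25.3% of all genes rose and 25.2% fell (50.5% called). The 14 of 35 called are 40% and lie below that background. All 14 are among the 26 members not dim in every group, where they make up 53.8%. The background of 50.5% includes dim genes, so these 2 shares are not of like genes. Tested among genes at or above the median mean alone, 7808 of 9888 were called. Ligands accounted for 4 of the rises (WNT2B, WNT5A, WNT5B and WNT10B) beside FZD1, FZD2 and FZD6. The falls were FZD3, FZD5, FZD7, FZD10, LRP6, ROR1 and WNT8A. At 2-fold or more 6 rose (all of these rises but FZD1) and 5 fell (FZD5, FZD7, FZD10, ROR1 and WNT8A), against 10.7% and 10.6% of all genes. Limma called 0 of the 4 R-spondins here as well, with 0 at an unadjusted p under 0.05.

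From d0 with Dox to the Dox-labelled day 6 arrays 9 members rose and 11 fell, where 22.2% of all genes rose and 23.9% fell (46.1% called). Of the 26 members not dim in every group 18 were called (69.2%). Tested among genes at or above the median mean alone, 7181 of 9888 genes were called. WNT2, WNT2B, WNT4, WNT5A, WNT5B, WNT11, RSPO3, FZD2 and FZD4 rose. FZD3, FZD5, FZD7, FZD10, LRP6, ROR1, ROR2, RYK, WNT8A, WNT8B and WNT9A fell. At 2-fold or more 7 rose (all of these rises but FZD2 and WNT11) and 8 fell (FZD3, FZD5, FZD7, FZD10, LRP6, ROR1, WNT8A and WNT9A), against 8.74% and 8.61% of all genes. After centring each array on its median the same number of members rose and 9 fell, while over all genes the split moved from 4392 higher and 4728 lower to 5407 and 3606. Centring moved the median of all genes in this comparison from -0.03 to 0.114. The comparisons of Dox-labelled arrays with d0 with Dox and with RA-labelled arrays share the Dox-labelled arrays, and those with d0 share d0, so their values are not independent.

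Among the Frizzleds, FZD10, a receptor that is prominent in embryonic tissues and little expressed in most adult ones, had the widest range. It read 497, 358 and 433 at d0, 952, 955 and 914 with Dox, 94.3, 108 and 86.5 in the RA-labelled arrays, and 43.8, 18.9 and 40.8 in the Dox-labelled arrays. The 4 groups did not overlap. It rose with Dox at d0 by a log2 fold change of 1.11 ± 0.19 (limma adjusted p = 0.00468). The change was -1.98 from d0 to the RA-labelled arrays (adjusted p = 9.89e-06), -1.19 from RA-labelled to Dox-labelled arrays (adjusted p = 0.00137) and -4.28 from d0 with Dox to the Dox-labelled arrays (adjusted p = 5.7e-08), the last being the largest fall of any member in the 4 comparisons as labelled. With day 6 labels exchanged the falls of FZD10 were -3.17 from d0 and -3.09 from d0 with Dox, smaller than those of FZD5 (-3.48 and -3.38).

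FZD5, a receptor that acts in the eye field and the placenta, was also lower at day 6. Its intensities were 15662, 15229 and 16975 at d0, 12203, 11923 and 12034 with Dox, 1358, 1153 and 959.8 in the RA-labelled arrays, and 1409.8, 1479 and 1343 in the Dox-labelled arrays. The day 6 arrays all lay far under the day 0 arrays and overlapped each other. The log2 fold change was -3.78 ± 0.11 from d0 to RA-labelled (13.7-fold, adjusted p = 2.75e-09) and -3.08 ± 0.11 from d0 with Dox to Dox-labelled (adjusted p = 1.32e-08). Between the day 6 groups it measured 0.30 (adjusted p = 0.083), and 0.42 without RA-labelled replicate 1 (adjusted p = 0.0135). With Dox at d0 it fell by 0.40 (limma adjusted p = 0.0422). That small fall missed the threshold when any 1 of 10 arrays was left out (all but RA-labelled replicates 1 and 3), with values of -0.44 to -0.36 and adjusted p of up to 0.112. It also missed it with the mean of the FZD5 probe sets, a pseudocount of 1, a replicate block or all probe sets tested.

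FZD7, known as the main Frizzled of human embryonic stem cells, read 13671, 13592 and 12907 at d0 and 19366, 20854 and 19715 with Dox. The RA-labelled arrays gave 4863, 4585 and 4296, and the Dox-labelled ones 6046, 6324 and 6195. All 4 groups were separate. It rose with Dox at d0 (0.58 ± 0.07, adjusted p = 0.00048), was higher in Dox-labelled than in RA-labelled arrays (0.43 ± 0.07, adjusted p = 0.00104), and fell in both comparisons of day 6 with day 0 (-1.55 and -1.69). Its other probe set, tested over all probe sets, went the same way in each of these comparisons and was called.

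FZD3, a receptor of axon guidance and tissue polarity, had a similar course with smaller steps. The d0 arrays read 2130.0, 2109 and 2195, those with Dox 3297, 3331 and 3452, the RA-labelled ones 1527, 1475 and 1429, and the Dox-labelled ones 1279, 1231 and 1408. It rose with Dox at d0 (0.64 ± 0.07, limma adjusted p = 0.000235) and fell to day 6, with -0.53 from d0 to RA-labelled arrays and with -1.35 from d0 with Dox to Dox-labelled arrays. The day 6 groups, though separate in every array, did not pass the test (-0.18, adjusted p = 0.084). They did without Dox-labelled replicate 3 (-0.23, adjusted p = 0.0395), and so did 1 of its 3 other probe sets (-0.33, adjusted p over all probe sets 0.0244). All 4 probe sets of FZD3 fell from d0 with Dox to the Dox-labelled arrays.

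FZD2, a receptor for WNT5A among other ligands, ran against the Frizzleds just described. It read 2822, 2367 and 2688 at d0, 5857, 6295 and 6329.6 with Dox, 12248, 9656 and 10316 in the RA-labelled arrays, and 8219, 8219 and 8212 in the Dox-labelled arrays. Each group lay above d0 without overlap. The rise with Dox at d0 was 1.23 ± 0.10 (2.34-fold, limma adjusted p = 4.23e-05), that from d0 to RA-labelled 2.02 ± 0.10 (adjusted p = 6.32e-08) and that from d0 with Dox to Dox-labelled 0.42 ± 0.10 (adjusted p = 0.00568). The day 6 groups differed by -0.38 ± 0.10 (adjusted p = 0.0179), a call lost without RA-labelled replicate 1 or without Dox-labelled replicate 1 or 2 (-0.45 to -0.28, adjusted p of up to 0.0543 over the 12 arrays left out in turn). That call was also lost in a fit of the 6 day 6 arrays alone.

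FZD6, a receptor of hair and tissue polarity, read 2114, 1950.1 and 2166 at d0, 3009, 2462 and 2638 with Dox, 4793, 4229 and 4378 in the RA-labelled arrays, and 2646, 2513 and 2733 in the Dox-labelled arrays. The RA-labelled arrays stood above the other groups, while Dox-labelled arrays overlapped d0 with Dox. It rose from d0 to RA-labelled (1.10 ± 0.09, adjusted p = 2.58e-06) and was lower in Dox-labelled than in RA-labelled arrays (-0.76 ± 0.09, adjusted p = 0.000179). From d0 with Dox to Dox-labelled it measured -0.03 (adjusted p = 0.8). Its rise with Dox at d0 (0.37, adjusted p = 0.0226) was lost without replicate 1 or 2 of d0 or replicate 1 or 3 of d0 with Dox (adjusted p of up to 0.076, values of 0.29 to 0.44). That rise was also lost in a fit of the 6 arrays of the comparison alone and with all probe sets tested.

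FZD1, a receptor that can signal through beta-catenin, read 173, 203 and 164 at d0, 411, 464 and 436 with Dox, 269, 228 and 236 in the RA-labelled arrays, and 377, 404 and 425 in the Dox-labelled arrays. The arrays at d0 with Dox and the Dox-labelled arrays stood above the d0 and the RA-labelled arrays, so that with day 6 labels exchanged the order at day 6 turns. It rose with Dox at d0 (1.21 ± 0.10, adjusted p = 3.93e-05), was higher in Dox-labelled than RA-labelled arrays (0.69 ± 0.10, adjusted p = 0.000549) and rose from d0 to RA-labelled (0.41, adjusted p = 0.00464). From d0 with Dox to Dox-labelled it measured -0.12 (adjusted p = 0.38). Its other 2 probe sets were dim in every group, and with the mean of all 3 none of these calls passed (0.47 with Dox at d0, adjusted p = 0.118).

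FZD4, the receptor of the retinal vessel ligand norrin as well as of WNT proteins, was high in 1 group. It read 439, 411 and 468 at d0, 411, 446 and 472 with Dox, 425, 361 and 305 in the RA-labelled arrays, and 1441, 1334 and 1725 in the Dox-labelled arrays. The Dox-labelled arrays did not overlap the others, and the remaining 3 groups overlapped each other. The difference was 2.0 ± 0.13 from RA-labelled (limma adjusted p = 3.6e-06) and 1.72 ± 0.13 from d0 with Dox (adjusted p = 2.18e-06), against 0.01 with Dox at d0 (adjusted p = 0.98). From d0 to RA-labelled it measured -0.27 (adjusted p = 0.12), and -0.39 without RA-labelled replicate 1 (adjusted p = 0.033). Its second probe set, under 64 in the other 3 groups, went the same way in both calls. FZD9 did not pass in any comparison, with group means of 79 to 141.

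**Figure D2:**
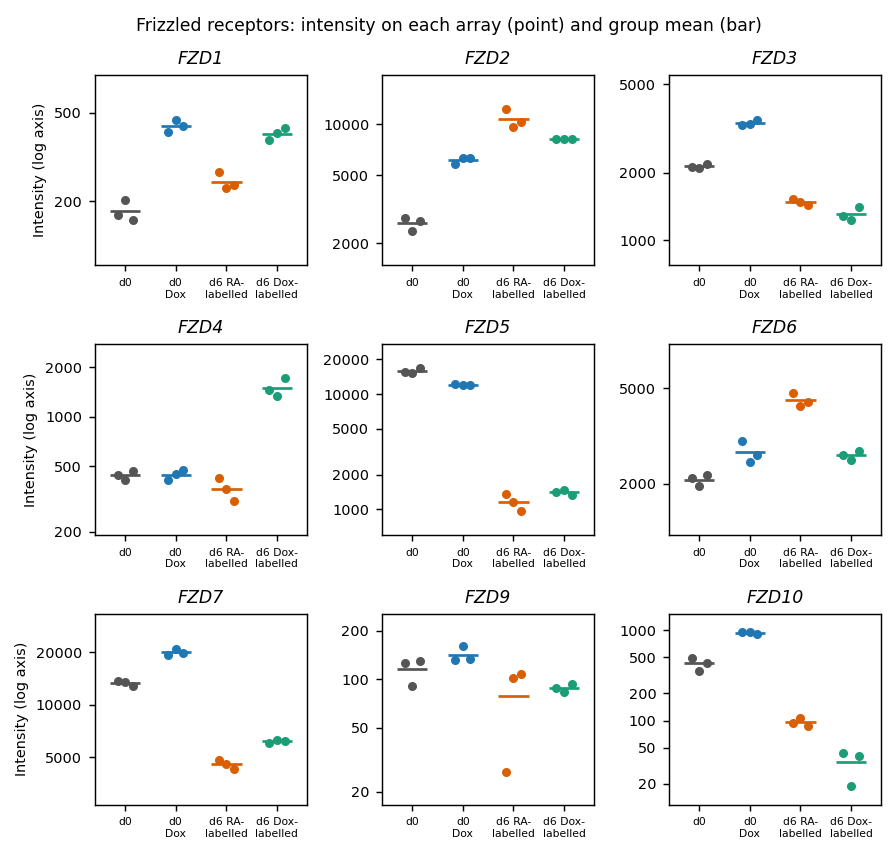
Deposited intensity (log axis) of the 9 Frizzled genes on each array (points, n = 3 a group) with the group mean (bar), for d0, d0 with Dox, and both day 6 groups by label. FZD3, FZD7 and FZD10 are highest at d0 with Dox, FZD5 falls from 15955 at d0 to 1157 and 1411 at day 6, and FZD4 is high in the Dox-labelled arrays (mean 1500.0) and between 364 and 443 in the other groups.

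Of the co-receptors, LRP6, which carries the WNT signal to beta-catenin, read 4186, 4082 and 4064 at d0, 4699, 4524 and 4750.4 with Dox, 2308, 2487 and 2539 in the RA-labelled arrays, and 2137, 2013 and 1997 in the Dox-labelled arrays. The day 6 arrays all lay under the day 0 arrays. It fell from d0 to RA-labelled (-0.75, adjusted p = 3.28e-06) and from d0 with Dox to Dox-labelled (-1.18, adjusted p = 1.83e-07), and all 3 of its probe sets fell in the latter. The day 6 groups differed by -0.25 (adjusted p = 0.0145), lost without RA-labelled replicate 3 or Dox-labelled replicate 2 (-0.29 to -0.22, adjusted p of up to 0.0537 over the arrays left out in turn). That call was also lost with the mean of the LRP6 probe sets, in a fit of these 6 arrays alone and with all probe sets tested. LRP5, its close relative, did not pass in the 4 comparisons, with group means of 192 to 249. It was lower in Dox-labelled arrays than at d0 (-0.35, adjusted p = 0.033), the pair that applies with day 6 labels exchanged.

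ROR1, a receptor kinase-like protein that binds WNT5A, read 6064, 6824 and 5672 at d0, 7042, 6565 and 6827 with Dox, 1897, 1928 and 1893 in the RA-labelled arrays, and 2453, 2713 and 2767 in the Dox-labelled arrays. The day 0 groups overlapped and the day 6 groups did not. It fell from d0 to RA-labelled (-1.69, 3.22-fold, limma adjusted p = 6.03e-08) and from d0 with Dox to Dox-labelled (-1.36, adjusted p = 4.02e-07), and was higher in Dox-labelled than RA-labelled arrays (0.47 ± 0.08, adjusted p = 0.00208).

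ROR2, its relative and the receptor through which WNT5A shapes limbs and skeleton, was brightest at d0 with Dox. Its intensities were 68.9, 87.4 and 132 at d0, 295, 264 and 222 with Dox, 51.8, 82.3 and 67.3 in the RA-labelled arrays, and 152, 110.3 and 120.1 in the Dox-labelled arrays. With Dox at d0 it rose 2.51-fold without overlap (1.33 ± 0.22, adjusted p = 0.00322), while ROR1 measured 0.14 (adjusted p = 0.31); the difference between the genes was not tested. It fell from d0 with Dox to Dox-labelled (-0.94, adjusted p = 0.00451). The Dox-labelled arrays were higher than the RA-labelled ones (0.79, adjusted p = 0.0217), which missed the threshold without RA-labelled replicate 1 or 3 or Dox-labelled replicate 1 (0.66 to 0.92, adjusted p of up to 0.0816). RYK, a receptor with an inactive kinase domain, stayed between group means of 4705 and 5647 and fell by 0.22 from d0 with Dox to Dox-labelled (adjusted p = 0.0112).

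**Figure D3:**
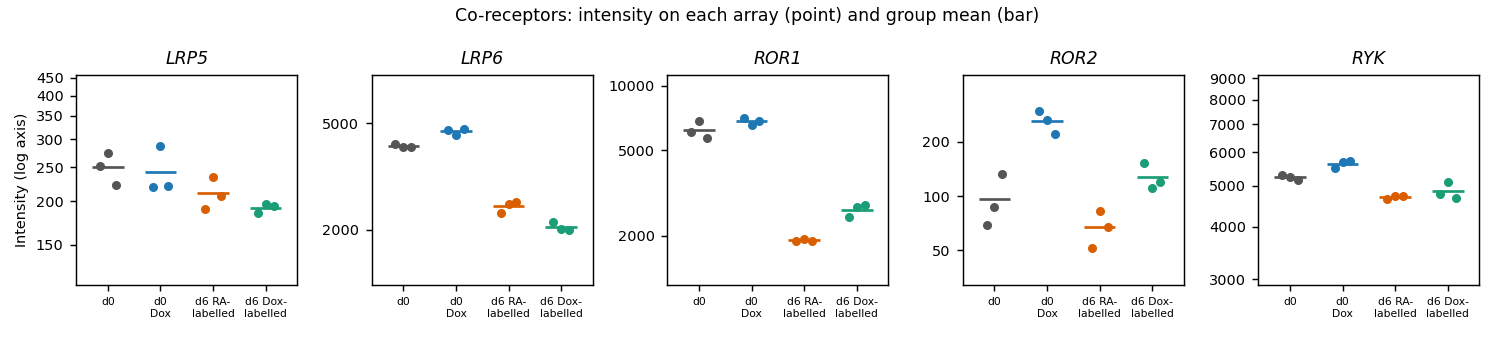
Deposited intensity (log axis) of the 5 co-receptor genes on each array (points, n = 3 a group) with the group mean (bar). LRP6 and ROR1 are lower in both day 6 groups than in both day 0 groups, ROR2 is highest at d0 with Dox (mean 259.9), and the group means of LRP5 lie between 192 and 249.

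Among the ligands, WNT5A, which drives limb and body axis outgrowth and signals largely without beta-catenin, was higher at day 6. It read 447, 543 and 541 at d0, 798, 635 and 627 with Dox, 1283, 1404 and 1309 in the RA-labelled arrays, and 2399, 2498 and 2993 in the Dox-labelled arrays. The groups did not overlap. It rose from d0 to RA-labelled (1.36 ± 0.12, adjusted p = 5.9e-06) and from d0 with Dox to Dox-labelled (1.91 ± 0.12, adjusted p = 6.96e-07), and was higher in Dox-labelled than RA-labelled arrays (0.97 ± 0.12, adjusted p = 0.000307). Dox at d0 gave 0.41, which missed the threshold (adjusted p = 0.057). It passed without Dox-labelled replicate 3 (0.41, adjusted p = 0.0492). It also passed with a pseudocount of 64, among genes at or above the median mean, with trend and robust variance and with array weights (limma adjusted p of 0.0146 to 0.0407). Its other probe set went the same way and was called in the 3 day 6 comparisons.

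WNT5B, the close relative of WNT5A, took the opposite order at day 6. It read 69.8, 78 and 108 at d0, 119.9, 111 and 153 with Dox, 1008, 801 and 978 in the RA-labelled arrays, and 425, 423 and 427 in the Dox-labelled arrays. Every day 6 array stood above every day 0 array, and the RA-labelled arrays above the Dox-labelled ones. The rise from d0 to RA-labelled was 9.4-fold (3.23 ± 0.15, limma adjusted p = 5.39e-08), the largest of any member in that comparison as labelled, and that from d0 with Dox to Dox-labelled 3.09-fold (1.63 ± 0.15). With day 6 labels exchanged the rise from d0 was 2.14, under that of WNT4 (4.10). The day 6 groups differed by -1.09 ± 0.15 (adjusted p = 0.000564). Dox at d0 gave 0.51 (adjusted p = 0.056), and 0.67 without d0 replicate 3 (adjusted p = 0.016). That change also passed among genes at or above the median mean, with trend and robust variance, array weights or a replicate block (limma adjusted p of 0.0139 to 0.0371). In WNT5B the representative probe set gave these values. Its other 2 probe sets were dim in every group and were not called, and in each day 6 comparison 1 of them went the opposite way.

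WNT4, a ligand of kidney and ovary development, appeared in the Dox-labelled arrays. It read 6.84, 2.5 and 6.1 at d0, 5.26, 17.4 and 28.3 with Dox, 13.3, 4.41 and 15.6 in the RA-labelled arrays, and 328, 342 and 363 in the Dox-labelled arrays. The other 3 groups lay at the bottom of the scale. The log2 fold change was 3.76 ± 0.25 from RA-labelled (limma adjusted p = 3.78e-06) and 3.51 ± 0.25 from d0 with Dox (adjusted p = 1.27e-06), sizes that depend on the pseudocount of 16. Under Dox at d0 it measured 0.58 (adjusted p = 0.17), and 0.87 without replicate 1 of d0 with Dox (adjusted p = 0.0291). Of its other 2 probe sets, both dim, 1 was called the same way.

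WNT2B, a ligand of the WNT2 subgroup, read 38.8, 33.5 and 36.4 at d0, 60.5, 36.6 and 53.3 with Dox, 182, 187 and 193 in the RA-labelled arrays, and 272, 248 and 298 in the Dox-labelled arrays. The day 0 groups overlapped and the day 6 groups did not. It rose by 1.96 ± 0.13 from d0 to RA-labelled (adjusted p = 4.83e-07) and by 2.14 ± 0.13 from d0 with Dox to Dox-labelled (adjusted p = 3.96e-07). The day 6 groups differed by 0.50 (adjusted p = 0.0158). That call was lost without Dox-labelled replicate 3 (0.44, adjusted p = 0.0575) and with the probe set of highest linear mean (0.73). At d0 the representative probe set did not pass with Dox (0.32, adjusted p = 0.14), and it did with the probe set of highest linear mean (1.19, adjusted p = 0.0166) or without replicate 2 of d0 with Dox (0.48, adjusted p = 0.0157).

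WNT10B, known as a brake on fat cell formation, was brightest in the RA-labelled arrays. It read 11.6, 6.2 and 5.65 at d0, 61.2, 44.5 and 48.4 with Dox, 158, 146 and 113 in the RA-labelled arrays, and 5.37, 33 and 81.3 in the Dox-labelled arrays. The Dox-labelled arrays spread from the d0 level to above d0 with Dox. It rose from d0 to RA-labelled (2.70 ± 0.43, adjusted p = 0.000354) and was lower in Dox-labelled than RA-labelled arrays (-1.72 ± 0.43, adjusted p = 0.0142, and 0.0794 in a fit of these 6 arrays alone). The rise with Dox at d0 (1.5 ± 0.43, adjusted p = 0.0464) was lost when any 1 of 10 arrays was left out (all but Dox-labelled replicates 1 and 3, with values of 1.40 to 1.61 and adjusted p of up to 0.127). It was also lost with a pseudocount of 1, quantile normalization, median centring, array weights or a replicate block. The same held with the mean of each gene's probe sets and with all probe sets tested. At d0 the mean of WNT10B lay under the pseudocount. From d0 with Dox to Dox-labelled it measured -0.52 (adjusted p = 0.37), and -1.05 without Dox-labelled replicate 3 (adjusted p = 0.022).

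WNT9A, a ligand of joint formation, read 151, 194 and 149 at d0, 145, 146 and 127 with Dox, 233, 181 and 207 in the RA-labelled arrays, and 49.9, 45.2 and 88 in the Dox-labelled arrays. The Dox-labelled arrays lay under the other groups. They were lower than RA-labelled (-1.57 ± 0.19, adjusted p = 0.000216) and than d0 with Dox (-1.05 ± 0.19, adjusted p = 0.00108). From d0 to RA-labelled the change did not pass (0.31, adjusted p = 0.22).

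WNT8A, a ligand of the forming primitive streak, was lower at day 6. It read 93.2, 125 and 146 at d0, 134, 106 and 91.7 with Dox, 1.68, 57.8 and 7.24 in the RA-labelled arrays, and 6.17, 9.68 and 24.4 in the Dox-labelled arrays. The day 6 arrays lay under the day 0 arrays, with RA-labelled replicate 2 the highest of them. It fell from d0 to RA-labelled (-2.12 ± 0.46, adjusted p = 0.00294) and from d0 with Dox to Dox-labelled (-2.14 ± 0.46, adjusted p = 0.00321), sizes that depend on the pseudocount at such low day 6 signals. Without RA-labelled replicate 2 the former was -2.74.

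WNT2, a ligand of lung and placental vessels, read 34.4, 5.12 and 19.8 at d0, 14.3, 23.3 and 6.45 with Dox, 6.67, 7.04 and 62.8 in the RA-labelled arrays, and 89.9, 58.2 and 63.1 in the Dox-labelled arrays. Replicate 3 of the RA-labelled arrays stood apart from the other 2 and within the Dox-labelled range. It rose from d0 with Dox to Dox-labelled (1.51 ± 0.48, adjusted p = 0.0265), a call lost without replicate 1 or 3 of either group (1.31 to 1.71, adjusted p of up to 0.0889). Its mean at d0 with Dox lay under the pseudocount, so the size depends on it (0.77 to 2.32 over the alternatives), and the call was lost with a pseudocount of 1. Between the day 6 groups it did not pass (1.31, adjusted p = 0.077), and without RA-labelled replicate 3 it did (1.90, adjusted p = 0.00514).

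RSPO3, an R-spondin of blood vessel and placenta development, read 133, 97.8 and 75.3 at d0, 195, 158 and 176 with Dox, 291, 244 and 42.6 in the RA-labelled arrays, and 528, 572 and 419 in the Dox-labelled arrays. Replicate 3 of the RA-labelled arrays was the lowest of all 12 and the other 2 lay above every day 0 array. The Dox-labelled arrays were higher than RA-labelled (1.63 ± 0.52, limma adjusted p = 0.0423) and than d0 with Dox (1.43 ± 0.52, adjusted p = 0.044). Both calls held without any 1 of the RA-labelled arrays and were lost without any 1 of the other 9 (adjusted p of up to 0.113 and 0.11). Both were also lost with a pseudocount of 1 and with all probe sets tested. The call between the day 6 groups was lost in a fit of these 6 arrays alone as well. Without RA-labelled replicate 3 the day 6 difference was 0.87 (adjusted p = 0.0171). From d0 to RA-labelled it measured 0.53 with all arrays (adjusted p = 0.44) and 1.29 without that replicate (adjusted p = 0.000705). Dox at d0 gave 0.73 in both cases, with an adjusted p of 0.43 and 0.0357. RSPO4 did not pass in any comparison, with group means of 75 to 97.2.

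**Figure D4:**
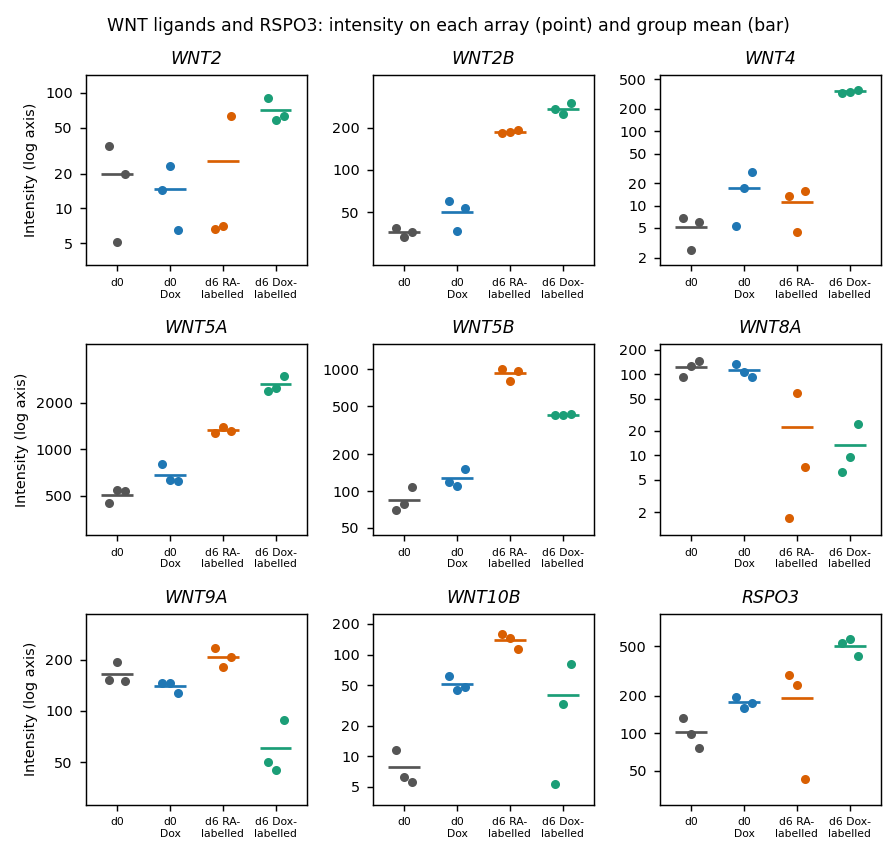
Deposited intensity (log axis) of 8 WNT ligands and RSPO3 on each array (points, n = 3 a group) with the group mean (bar). WNT5A and WNT5B are higher at day 6 in opposite order (means of 1332 and 2630.2 for WNT5A, 929 and 425 for WNT5B in RA-labelled and Dox-labelled arrays), and WNT4 stands at 344 in the Dox-labelled arrays against 5.15 to 17 elsewhere.

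Of the remaining ligands WNT6, which is active in epithelia, had group means of 195 to 241 and WNT16, a ligand of bone, of 50.9 to 83.5, and neither representative probe set passed in the 4 comparisons. The probe sets of WNT6 disagreed. Of its 3 others, tested over all probe sets, 1 was higher in Dox-labelled than RA-labelled arrays (1.46, adjusted p = 0.000263, mean 144 against 42.9), fell from d0 to RA-labelled (-0.67, adjusted p = 0.00855) and rose from d0 with Dox to Dox-labelled (0.65, adjusted p = 0.0114). Among the 9 dim members, WNT11 rose (0.51, adjusted p = 0.00233) and WNT8B fell (-0.63, adjusted p = 0.0462) from d0 with Dox to the Dox-labelled arrays, at means of 3.29 to 11.6 and 22.8 to 9.25, all of them at the low end of the scale. WNT1, WNT7A, WNT7B, WNT9B, WNT10A, RSPO1 and RSPO2 did not pass in the 4 comparisons by their representative probe sets, with highest group means of 7.5 to 47.2. A second probe set of RSPO2, tested over all probe sets, rose with Dox at d0 (1.21, adjusted p = 0.0364, mean 13.3 to 49.5) and fell from d0 with Dox to Dox-labelled (-1.44, adjusted p = 0.00259, to a mean of 9.34), all of them dim. At such signals a difference may not be detectable on these arrays.

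Across the 56 calls of the 20 members given by array, 38 concerned genes with further probe sets. Of those 64 further measurements 59 went the way of the representative, 40 of them called, and 0 were called in the opposite direction over all 54675 probe sets.

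Around the receptors, the other genes of the pathway were taken from 7 lists of 91 genes, of which 88 were measured. Some genes stand on more than 1 list, LEF1 and DKK1 among them. WLS, which carries WNT proteins to the cell surface, rose in all 4 comparisons. It went from a mean of 962 at d0 to 2879 with Dox (1.57, adjusted p = 3.13e-06) and reached 4127 under the RA label and 5824 under the Dox label (0.50 between them, adjusted p = 0.00138). LEF1, a nuclear partner of beta-catenin and itself a WNT target, also rose in all 4, from 110.0 at d0 to 272 with Dox (1.19), 477 RA-labelled and 794 Dox-labelled.

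With Dox at d0, of 14 secreted inhibitors measured 6 rose and 8 did not pass (median 0.39), beside 7.75% rising, 5.16% falling and 12.9% called over all genes, led by DKK1 (2.61) and SFRP1 (1.95). Of 12 planar cell polarity genes 4 rose and 8 did not pass, led by the cadherin-type receptors CELSR2 (0.97) and CELSR1 (0.60). Target genes counted 6 rises, 1 fall and 14 not passing of 21, and among the secretion genes GPC4, a glypican of the cell surface, fell (-0.34) beside the rise of WLS. Of 9 genes of receptor turnover KREMEN2, a receptor for DKK proteins, rose (0.75) and 8 did not pass. Beta-catenin transduction counted 3 rises and 1 fall of 18, and TCF factors and partners 3 and 1 of 13. AXIN2, a general feedback target of beta-catenin, measured 0.22 (adjusted p = 0.223). It fell from d0 to RA-labelled (-0.82, adjusted p = 8.01e-05) and from d0 with Dox to Dox-labelled (-1.01, adjusted p = 2.18e-05), and is named after its values were seen.

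Between the day 6 groups PRICKLE1, a cytoplasmic polarity protein, was higher in the Dox-labelled arrays (mean 5071 against 678, log2 2.87, adjusted p = 5.59e-09), and PTK7, a polarity co-receptor, was lower (-1.04). Polarity genes counted 2 higher, 5 lower and 5 not passing of 12, where 13.7% of all genes were higher and 12.2% lower (25.9% called). GPC3, a glypican that binds WNT proteins, was higher (2.47, from 308 to 1785) and GPC4 lower (-1.01), in a secretion list with 4 higher, 1 lower and 2 not passing of 7. The target genes counted 5 higher, 3 lower and 13 not passing. MSX2, also a target of BMP signals, was higher (2.31), while SP5 (-2.41, from a mean of 122 to 10.7, under the pseudocount) and the feedback inhibitor NKD1 (-1.46) were lower. The inhibitors counted 4 and 3 of 14, receptor turnover 0 and 1 of 9 (KREMEN2, -0.76; 0 higher in limma), transduction 2 and 2 of 18, and TCF factors and partners 2 and 3 of 13.

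In the comparisons of day 6 with day 0, 50.5% of all genes were called from d0 to RA-labelled (25.3% up, 25.2% down) and 46.1% from d0 with Dox to Dox-labelled (22.2% up, 23.9% down). LGR4, a receptor of R-spondins, fell from d0 to RA-labelled (-0.95) and from d0 with Dox to Dox-labelled (-1.6). KREMEN1, another receptor for DKK proteins, rose in both (1.5 and 1.76). Receptor turnover genes counted 2 rises and 2 falls of 9 in the former and 1 and 6 in the latter. SFRP2, a secreted inhibitor, fell in both (-4.38 and -4.57), in a list with 1 rise and 6 falls, and then 3 and 7, of 14. TCF7L1, the TCF factor that acts mainly as a repressor in stem cells, fell (-1.42 and -1.24), and DVL3, which relays the Frizzled signal, rose by 1.46 and 1.16. Target genes counted 7 rises and 6 falls, and then 5 and 10, of 21. Polarity genes counted 3 and 6, and then 3 and 7, of 12, with PRICKLE2 rising in both (3.08 and 2.12).

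**Figure D5:**
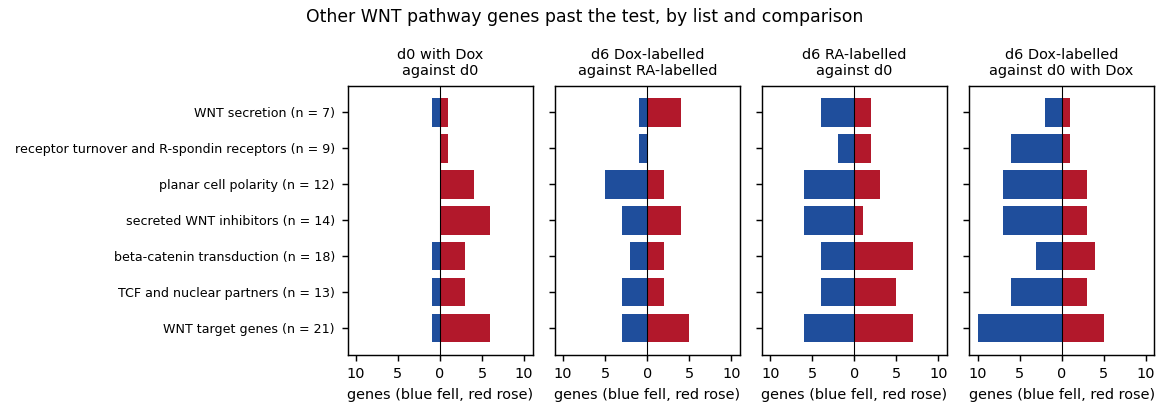
Number of genes (horizontal axis) that rose (red, to the right) or fell (blue, to the left) past the adjusted p of 0.05 in each of 7 lists of other WNT pathway genes (rows, with the number measured) in the 4 comparisons (panels). With Dox at d0 the secreted inhibitors count 6 rises of 14, and from d0 with Dox to the Dox-labelled arrays the target genes count 10 falls of 21.

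Other measures moved with the groups. In bulk RNA fewer cells of a type and less RNA per cell cannot be told apart. The summed intensity of 10 neural markers was 5529.6 to 5828 at d0, 9284 to 9598 with Dox, 7957 to 8901 in RA-labelled and 8018 to 8581 in Dox-labelled arrays, with SOX1, ZIC1, HES5 and NEUROG2 dim in all 4 groups. NES made up most of the day 6 sums (means of 7689.8 and 7291), while OTX2 went from 4472 at d0 with Dox to 86.3 and DCX from 425 to 109 in Dox-labelled arrays. MAP2 went the other way, from 212 to 511. For 10 markers of mesenchyme the sums were 32753 to 34613, 34817 to 35913, 88933 to 100940.1 and 107990.0 to 111635 in the same order, with PRRX1 dim throughout. COL1A1 and COL1A2 made up most of these sums (means of 37199 and 34849.9 in Dox-labelled arrays). THY1 went the other way, with means of 6931, 3972, 2042 and 1171. For 7 trophoblast and amnion markers the sums were 3036 to 3152, 2951 to 3157, 6773 to 8291 and 38447 to 39822, with CGA dim throughout. IGFBP3 alone had a mean of 26619.9 in the Dox-labelled arrays, where GABRP was lower than at d0 with Dox (94.1 against 201). For 5 endoderm markers they were 2419 to 2809, 1488 to 1909, 1778 to 2088 and 8048 to 8439.6, and for 10 primitive streak and mesoderm markers 2962 to 3176, 2174 to 2328, 1399.9 to 2149 and 4248 to 5115, with MIXL1, MESP1 and TBX6 dim throughout. GATA6 carried the endoderm sum of the Dox-labelled arrays (224 at d0 with Dox, 8032 there), where CXCR4 (526 to 98.4) and CER1 (794 to 35.7) fell and SOX17 and FOXA2 did not pass. PDGFRA (325 to 3604) carried most of the streak and mesoderm sum there. HAND1 (71.3 to 236) and GATA4 (56.9 to 145) also rose, while KDR, EOMES and APLNR fell. The ratio of 3' to 5' signal of ACTB, a mark of RNA quality, was 3.24 ± 0.139 at d0, 3.86 ± 0.0111 with Dox, 2.59 ± 0.29 in RA-labelled and 2.33 ± 0.058 in Dox-labelled arrays. That of GAPDH was 1.53, 1.62, 1.35 and 1.46 in the same order, so that the day 6 groups stood the other way round. The part of these measures in the results on WNT genes was not tested.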

How the data were processed

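The authors deposited 1 table of linear probe set intensity values for 54675 probe sets on 12 arrays; background correction, summarisation and genome build are not given in the sources used here. Per the labels' protocols, TRIzol RNA was biotin-labelled by the standard Affymetrix protocol. Each array had a mean of 499.9 once 2% of probe sets at either end were set aside, so signal is relative to the rest of its array. Of the probe sets, 41097 carried a single gene symbol, taken through the gene ID for 41043. Values were tested as log2(intensity + 16) with limma 3.58.1 in R 4.3.3 (lmFit, eBayes, all 12 arrays, 8 residual degrees of freedom), and p-values were adjusted by Benjamini-Hochberg across 19775 genes. The fit was tested on simulated data. Replicate arrays correlated at r = 0.986 to 0.988.

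Values by array are given for members called at 2-fold or more with a higher group mean of at least 64 in any comparison; up to 2 called rises and falls of each pathway list are named. The members and lists were chosen with earlier results of these data known. Batches of arrays were not tested, since no scan date was used here. Alternatives were other pseudocounts, scalings, probe set rules, gene filters, variance models, a replicate block and leaving out each array.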

Additional observations from a re-analysis of the deposited data

How the results depend on the processing

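Of 56 calls on the 20 members given by array, 42 held under every alternative run on them, 14 were lost under at least 1, and 0 changed sign. The exchange of day 6 labels is not among the alternatives of that count. It would turn the sign of every call between the day 6 groups. The number of members called was 9, 16, 14 and 20 for Dox at d0, between the day 6 groups, and then for each day 6 group (RA-labelled first) beside its day 0 group. It was 6 to 9, 13 to 16, 14 to 15 and 17 to 20 when 1 array was left out. Tested among genes at or above the median mean, which keeps 13 members, 11 were called in the last comparison instead of 20, since fewer members were tested. With day 6 labels exchanged, an alternative chosen after seeing the data, the last 2 counts were 20 and 18.

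Titles number the replicates in each group. Same-numbered arrays of different groups correlated at -0.0233 to 0.164 in their deviations (median 0.0502, 18 pairs). Differently numbered arrays of different groups correlated at -0.17 to 0.0745 (median -0.0287, 36 pairs). Whether the numbers mark paired arrays was not tested. With the replicate block the counts were 8, 16, 14 and 20. Over all genes, 2552 were called with Dox at d0, against 1522 in a fit of those 6 arrays alone and 1676 of the representatives when all probe sets were tested. Over the alternatives other than leaving out an array, the members called there ranged from 6 (all probe sets tested) to 12 (trend and robust variance). Dim members limit the text: 9 of 35 had all group means under 64.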
